A study of Mus musculus with 16 samples.

Results

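Cabozantinib given alone was compared with placebo in mouse liver cancer tumours, over 5 tumours labelled Cabozantinib and 4 labelled Placebo out of 16 tumours in the series, chosen by their treatment label. Each tumour had grown under the skin of the right flank of a male C57BL/6 mouse, aged 5 weeks when Hepa1-6 cells in 50% Matrigel were injected. Hepa1-6 is a mouse hepatocellular carcinoma line, so these are grafts of 1 line in hosts with an intact immune system, placed outside the liver. Treatment began at a tumour volume of 200 to 300 cubic mm, and the mice were culled on day 14. Cabozantinib mice received 30 mg/kg by mouth every day (n = 5), and their labels name no IgG. The Placebo labels name no oral vehicle. In Cabozantinib against Placebo, the drug, the oral dosing and the IgG injections therefore cannot be told apart. Placebo mice received hamster IgG at 10 mg/kg into the peritoneum, 5 doses with 3 days between doses (n = 4). The other 7 tumours came from mice given cabozantinib with the hamster anti-PD1 antibody J43 (Combination, n = 4) or J43 alone on the IgG schedule (AntiPD1, n = 3). Combination and AntiPD1 mice had the same antibody dose and schedule. These 7 tumours served to read the effect of cabozantinib, with its oral dosing, in the presence of the antibody. Their values enter neither the Cabozantinib nor the Placebo mean, but share the variance estimate and the choice of probe sets with that comparison.

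Cabozantinib is a small molecule that inhibits several receptor tyrosine kinases, among them the VEGF receptors on endothelial cells, MET, the receptor of hepatocyte growth factor, AXL, and KIT, the receptor that mast cells depend on. VEGF receptor signalling drives the sprouting of new vessels, led by tip cells, while pericytes wrap the finished capillary. When blood supply falls short of demand, the hypoxia-inducible factors HIF-1 and HIF-2 are stabilised and switch on genes for glucose uptake, glycolysis, glycogen storage and collagen modification.

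The values are log2 array signals, 1 array per tumour and 1 probe set per gene, for 17097 genes. Levels of different genes are not compared, because each probe set has its own scale. All differences are Cabozantinib minus Placebo on the log2 scale with their standard error (SE), and adjusted p is from limma over all 17097 genes. A gene is said to have risen or fallen when its adjusted p was under 0.05. Array medians ran from 4.92 to 5.13. On the Cabozantinib and Placebo arrays 22 of the 23 nonspecific control sets read 3.50 to 4.35, and the other read 4.86 to 6.13. The lowest array median, 4.92, was taken as the limit, and a mean under it is not shown to lie above background. The labelled tissue matched its defining gene. Alb, the liver plasma protein albumin, stood at 13.11 ± 0.04 in Cabozantinib (SD, n = 5) and 13.17 ± 0.03 in Placebo (SD, n = 4), adjusted p = 0.728. The arrays themselves were not equal between the groups. Spiked hybridisation controls averaged 10.49 ± 0.29 in Cabozantinib (SD, n = 5) and 9.86 ± 0.39 in Placebo (SD, n = 4), exact permutation p = 0.0317 and 0.0794 after adjustment over 5 quality measures. Labelling controls averaged 9.15 ± 0.31 in Cabozantinib and 8.41 ± 0.61 in Placebo, with the same exact p and adjusted p, and for both controls 4 of 5 Cabozantinib arrays lay above every Placebo array. RNA of other tissues also varied. The skeletal muscle score, which averages 17 muscle genes after centring each on its mean of all 16 tumours, was -1.91, -1.76, 1.96, 3.99 and -0.92 in Cabozantinib tumours 1 to 5, against -1.12, -2.01, 0.80 and -1.99 in Placebo tumours 1 to 4. All 17 muscle genes had positive differences (median 1.47), 0 of them at an unadjusted p under 0.05. The same score over 8 adipocyte genes was 2.80 in Cabozantinib tumour 2, and between -1.41 and -0.09 in the other 4 Cabozantinib tumours, against -1.21 to -0.28 in Placebo. The fibroblast score ran from -1.35 to 0.84 in Cabozantinib and from -1.03 to -0.10 in Placebo.

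Between the groups 19 genes rose, which is 0.111% of those tested, and 25 fell, which is 0.146%. The genes that fell were led by vessel, red cell and mast cell genes, and those that rose included glycogen and hypoxia genes. The differences of the genes that fell ran from -0.56 to -3.29, and 13 of them were at least 2-fold. The rises were smaller, at 0.33 to 1.42, and 4 were at least 2-fold. In all 19 genes that rose, every Cabozantinib tumour lay above every Placebo tumour (1.97% of all genes did so), and in 24 of the 25 that fell every Cabozantinib tumour lay below every Placebo tumour (2.54% of all genes), Emcn being the exception. At an unadjusted p under 0.05 the count was 2218 genes, 13% of those tested, where 855 would be expected with no difference anywhere. Counts of list members at that level, given below, stand beside this 13%. The median difference over all genes was 0.00. Both counts depended on the arrays in the fit. With the 9 arrays alone, which leave fewer degrees of freedom, limma called 1 rise and 3 falls, and the cause of this drop was not tested. Without Placebo tumour 3, limma called 0 rises and 5 falls, and without Placebo tumour 1 it called 48 rises and 43 falls. With the hybridisation controls as a covariate 1 gene rose and 15 fell, and with the labelling controls 6 rose and 26 fell. The part of the array controls in the rises was not tested beyond these fits.

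The vessel genes that fell covered sprouting cells, capillary lining and junctions. Esm1 (endocan) is secreted by tip cells. Its signal was 4.54, 4.89, 4.47, 4.78 and 4.62 in Cabozantinib tumours 1 to 5, against 6.11, 6.85, 6.70 and 7.25 in Placebo tumours 1 to 4. Every Cabozantinib tumour was below the lowest array median, so the 4.18-fold lower mean (difference -2.06 ± 0.21 SE, adjusted p = 0.00144) is bounded by background. Esm1 is the single gene that kept its call in all 27 alternative settings run. Gpihbp1 carries lipoprotein lipase to the luminal side of capillary endothelium. It read 4.84, 5.88, 4.35, 4.65 and 5.06 in Cabozantinib tumours, against 6.98, 6.74, 7.72 and 7.34 in Placebo tumours, with tumour 2, the one with the highest adipocyte score, the highest of the treated tumours. The mean was 4.72-fold lower (difference -2.24 ± 0.27 SE, adjusted p = 0.00409).

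Endothelial junction and surface genes followed. Cdh5 encodes VE-cadherin, the adhesion molecule of endothelial junctions. Its signal was 4.64, 5.05, 4.96, 5.62 and 4.67 in Cabozantinib tumours, against 6.01, 6.11, 6.62 and 6.53 in Placebo tumours, without overlap and 2.52-fold lower (adjusted p = 0.0142). Emcn encodes endomucin, a surface mucin of capillary and venous endothelium. It read 5.14, 5.36, 5.12, 6.28 and 5.33 in Cabozantinib tumours, against 6.89, 6.27, 7.82 and 7.41 in Placebo tumours. Here Cabozantinib tumour 4 stood above its group and just above Placebo tumour 2, and the mean was 3.14-fold lower (adjusted p = 0.0381). Apold1, an early response gene of endothelial cells, read 5.37, 5.66, 4.95, 5.69 and 5.26 in Cabozantinib tumours, against 6.56, 6.48, 6.56 and 7.00 in Placebo tumours. The 2 groups were apart and each was narrow (2.40-fold lower, adjusted p = 0.00409). Adgrf5, an adhesion receptor of capillary endothelium, was 1.98-fold lower (adjusted p = 0.0169). Its 4 Placebo tumours lay between 8.54 and 8.60, above Cabozantinib tumours at 7.12 to 8.15.

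**Figure D1:**
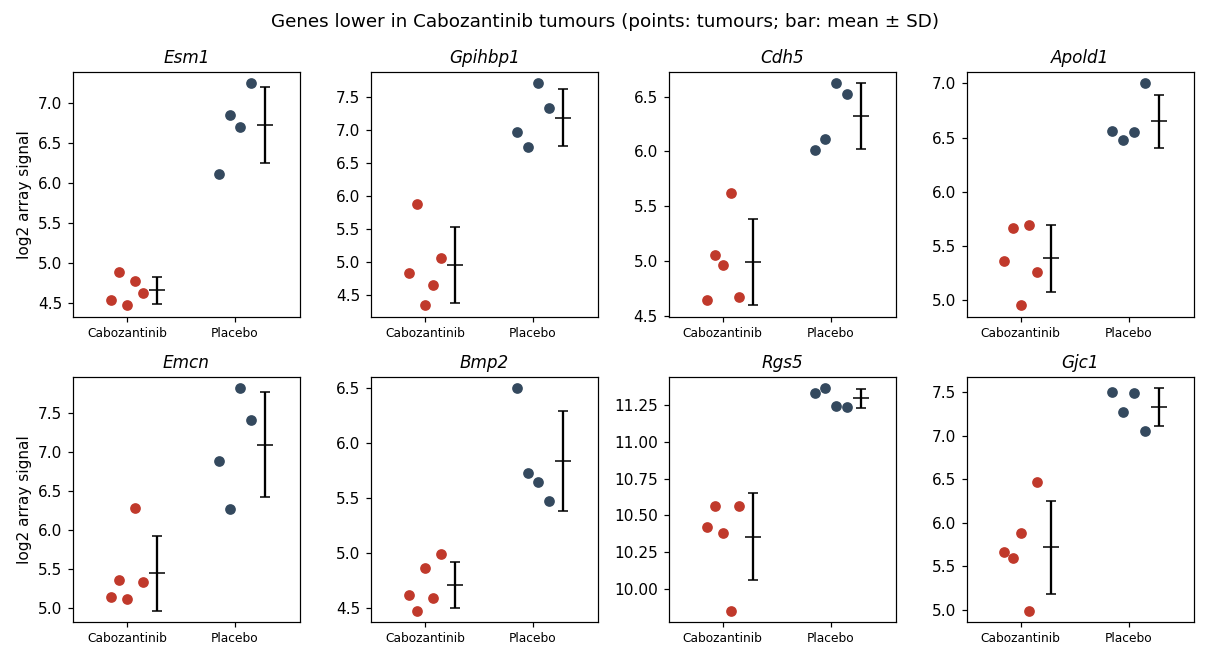
Log2 array signal of 8 genes that fell, for 5 Cabozantinib tumours (left of each panel) and 4 Placebo tumours (right), with 1 point per tumour and a bar for the mean ± SD. The groups are apart in 7 panels, and in Emcn Cabozantinib tumour 4 at 6.28 reaches the lowest Placebo tumour at 6.27.

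Of 29 measured endothelial markers 3 fell (Gpihbp1, Emcn and Cdh5) and 0 rose, with 24 negative differences, 15 of them at an unadjusted p under 0.05, and a median of -0.37. The list's score was -0.63, -0.52, -0.39, -0.17 and -0.61 in Cabozantinib tumours and -0.01, -0.30, 0.41 and 0.12 in Placebo tumours, so Cabozantinib tumour 4, the tumour with the highest muscle score, overlapped Placebo tumour 2. Cldn5, a claudin of endothelial tight junctions with a treated mean of 4.82, under the lowest array median, differed by -1.23 ± 0.29 SE (adjusted p = 0.0926), and Pecam1, a common endothelial adhesion molecule, by -0.58 ± 0.27 SE (adjusted p = 0.373). In bulk tissue fewer endothelial cells and less RNA per cell cannot be told apart. Of 13 tip cell and sprouting genes 1 fell (Esm1), with 9 negative differences and a median of -0.18. Their scores did not overlap, at -0.36 to -0.07 in Cabozantinib and 0.07 to 0.24 in Placebo. Apln, a peptide released by sprouting endothelium, read 5.56 to 6.35 in Cabozantinib and 6.44 to 7.21 in Placebo, without overlap, yet missed the threshold (difference -0.79 ± 0.20 SE, adjusted p = 0.115). Angpt2, a destabilising ligand of the TIE2 receptor, also differed without overlap, by -0.66 ± 0.17 SE (adjusted p = 0.132). The basement membrane collagens Col4a1 and Col4a2 were lower in 5 of 5 tumours by 0.89 ± 0.18 SE and 0.75 ± 0.17 SE, adjusted p = 0.0581 and 0.0857. They were the members of the matrix list with differences nearest the threshold, while the median of 23 collagens and matrix genes was -0.02.

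Genes of the vessel wall around the endothelium were lower too. Gjc1 encodes a connexin, a gap junction protein of vascular smooth muscle. Its signal was 5.66, 5.59, 5.89, 4.99 and 6.47 in Cabozantinib tumours, against 7.50, 7.27, 7.49 and 7.05 in Placebo tumours, 3.05-fold lower (adjusted p = 0.0141) with no overlap. Rgs5, a regulator of G protein signalling that marks pericytes, read 10.42, 10.56, 10.38, 9.85 and 10.56 in Cabozantinib tumours, against 11.33, 11.37, 11.25 and 11.24 in Placebo tumours. The Placebo tumours were closely grouped, Cabozantinib tumour 4 was the lowest of all 9, and the mean was 1.92-fold lower (adjusted p = 0.0141). Kcnj8, the potassium channel subunit of pericytes, was 1.63-fold lower (adjusted p = 0.0324), and the angiotensin receptor gene Agtr1a 1.73-fold lower (adjusted p = 0.0368), both without overlap. Rgs5 and Kcnj8 are the 2 of 13 measured pericyte and smooth muscle genes that fell. The list had 8 negative and 5 positive differences and a median of -0.39. Higd1b, a mitochondrial protein enriched in pericytes, and Mcam, an adhesion molecule of endothelium and mural cells, were lower in 5 of 5 tumours but missed the threshold (-1.11 ± 0.22 SE and -1.05 ± 0.21 SE, adjusted p = 0.0592 and 0.0519). The treated mean of Higd1b, 4.80, was under the lowest array median. The pericyte receptor gene Pdgfrb differed by -0.44 ± 0.33 SE (adjusted p = 0.640).

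Growth and guidance factors among the falls were Bmp2 and Sema6d. Bmp2, a bone morphogenetic protein made by endothelium among other cells, read 4.62, 4.48, 4.87, 4.59 and 4.99 in Cabozantinib tumours, against 6.49, 5.73, 5.64 and 5.47 in Placebo tumours. The treated mean was under the lowest array median, so the 2.18-fold difference (adjusted p = 0.0305) is bounded by background. It was the 1 member of 16 BMP, ID and ALK1 genes that fell, and their median was -0.08. Sema6d, a transmembrane semaphorin, read 5.93, 6.08, 6.18, 6.77 and 6.09 in Cabozantinib tumours, against 7.31, 7.36, 7.60 and 7.08 in Placebo tumours, 2.19-fold lower (adjusted p = 0.0324) with tumour 4 nearest to the controls.

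Globin transcripts, which come from red cells and their precursors, were among the largest falls. Hbb-b2 (beta globin) read 7.59, 7.97, 7.29, 8.66 and 8.12 in Cabozantinib tumours, against 9.92, 11.84, 10.52 and 11.79 in Placebo tumours. The mean was 8.52-fold lower (difference -3.09 ± 0.44 SE, adjusted p = 0.0141). Hba-a1 (alpha globin) read 7.95, 8.77, 7.88, 9.26 and 8.21 in Cabozantinib tumours, against 10.20, 12.21, 10.84 and 12.09 in Placebo tumours, 7.57-fold lower (adjusted p = 0.0169). For both globins Placebo tumours 2 and 4 were the highest, Cabozantinib tumour 4 was the highest of the treated, and the groups did not overlap. The probe sets of both carry an s or x suffix, which marks probes that can match several transcripts, so the members of each globin family may share signal. These were the 2 of 8 measured red cell genes that fell, with a list median of -0.12, and blood left in the tissue and red cells in vessels cannot be told apart. Slc40a1, ferroportin, the iron exporter of macrophages and other cells, fell 2.07-fold, at 8.57 to 9.01 in Cabozantinib and 9.44 to 10.35 in Placebo (adjusted p = 0.0254).

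Mast cell genes showed the lowest list median, -1.44 over 12 measured genes, with 11 negative differences, 10 of them at an unadjusted p under 0.05. The 1 gene that fell was Mcpt2, a mast cell chymase. It read 4.16, 4.51, 4.41, 4.32 and 4.14 in Cabozantinib tumours, all under the lowest array median, against 9.19, 6.08, 8.64 and 6.49 in Placebo tumours. The mean was 9.81-fold lower, a difference bounded by background (adjusted p = 0.0142). The Placebo tumours were spread over 3 log2 units. Cpa3, mast cell carboxypeptidase, read 4.31, 4.29, 4.81, 5.89 and 4.13 in Cabozantinib tumours, against 9.01, 5.87, 8.99 and 8.49 in Placebo tumours. Its treated mean of 4.69 was under the lowest array median as well, so the difference of -3.40 ± 0.67 SE is bounded by background. It missed the threshold (adjusted p = 0.0565), and Cabozantinib tumour 4 lay level with Placebo tumour 2. Cma1, a further chymase, and Tpsb2, a tryptase, differed by -2.85 ± 0.64 SE and -1.33 ± 0.31 SE (adjusted p = 0.0833 and 0.0918), with the treated mean of Tpsb2 at background (3.99). Kit, which encodes the receptor itself, read 4.79 to 5.86 in Cabozantinib and 5.68 to 6.19 in Placebo (-0.84 ± 0.20 SE, adjusted p = 0.0982).

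The remaining falls were genes of mixed function. Trp53i11, a p53-inducible gene, read 4.40, 4.54, 4.80, 4.86 and 4.59 in Cabozantinib tumours, against 5.74, 5.38, 6.19 and 5.86 in Placebo tumours, 2.23-fold lower with the treated mean under the lowest array median (adjusted p = 0.00546). It was the 1 member of 15 p53 targets that fell, and the median of that list was -0.15. At an unadjusted p under 0.05, 5 members were lower and 2 higher. Cdkn1a was higher in every Cabozantinib tumour, at 10.66 to 10.90 against 10.38 to 10.61 in Placebo. Ppp1r13b, which encodes the p53-binding protein ASPP1, read 5.93 to 6.02 in Cabozantinib and 6.50 to 6.70 in Placebo (adjusted p = 0.0141). Its probe set can match several transcripts. Gclm, a subunit of the enzyme that starts glutathione synthesis, fell 1.63-fold, at 8.99 to 9.58 in Cabozantinib and 9.96 to 10.13 in Placebo (adjusted p = 0.0199). It was the 1 of 11 measured NRF2 targets that fell, and 10 of the 11 differences were negative, among them Txnrd1, thioredoxin reductase (-0.32 ± 0.08 SE, adjusted p = 0.105). Sult1c2, a sulfotransferase, and Rnpep, an aminopeptidase, fell 1.95-fold and 1.48-fold, and Rogdi fell 1.59-fold, with adjusted p of 0.0251, 0.0280 and 0.0276. Cyp11a1, which makes pregnenolone from cholesterol, had its treated mean under the lowest array median, and Emid1 and Clca2 had both means there, so their differences of -0.77, -0.64 and -0.62 rest on dim signals.

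Among the rises, 3 genes belong to glycogen synthesis. Gys1, glycogen synthase, lengthens the glycogen chain. Its signal was 7.87, 7.87, 7.68, 8.10 and 7.64 in Cabozantinib tumours, against 7.25, 7.23, 7.02 and 6.79 in Placebo tumours, 1.70-fold higher (adjusted p = 0.0141). Gbe1, the branching enzyme, read 6.52, 6.98, 6.57, 6.60 and 6.43 in Cabozantinib tumours, against 5.99, 5.57, 6.01 and 5.58 in Placebo tumours, 1.78-fold higher (adjusted p = 0.0261). Ppp1r3b targets protein phosphatase 1 to glycogen, where it activates the synthase. It read 8.12 to 8.56 in Cabozantinib and 7.54 to 7.72 in Placebo, 1.61-fold higher (adjusted p = 0.0141). No tumour of one group reached the other for any of these genes. They are the 3 of 20 measured glycogen genes that rose, and 0 fell. With the muscle score as a covariate all 3 kept their calls (adjusted p = 0.0134, 0.0267 and 0.00381 for Gys1, Gbe1 and Ppp1r3b), and with the hybridisation controls 0 did (0.102, 0.343 and 0.0911). The list as a whole had 16 positive differences and a median of 0.10, or 0.05 with the muscle score. Its largest difference was that of Pygm, the glycogen phosphorylase of muscle (0.97 ± 1.24 SE, adjusted p = 0.803), named after its value was seen. The glycogen score was -0.02, 0.08, 0.07, 0.26 and -0.08 in Cabozantinib tumours and -0.10, -0.24, -0.18 and -0.27 in Placebo tumours, highest in Cabozantinib tumour 4, which also had the highest muscle score. Pgm1, the phosphoglucomutase that links glycogen to glycolysis, was higher in 5 of 5 tumours but missed the threshold (0.48 ± 0.13 SE, adjusted p = 0.136).

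Of 25 measured hypoxia targets 3 rose, all 25 differences were positive where 50% of all genes were, and the median was 0.41. The list was chosen with earlier results of these data known. Its members were read in the same tumours, so the count carries no test. At an unadjusted p under 0.05 there were 17 (13% of all genes reached that level in either direction). In 12 every Cabozantinib tumour was above every Placebo tumour (1.97% of all genes did so). P4ha2, a collagen prolyl hydroxylase subunit, read 10.35, 10.21, 10.46, 10.50 and 10.06 in Cabozantinib tumours, against 9.90, 9.57, 9.33 and 9.52 in Placebo tumours, 1.67-fold higher (adjusted p = 0.0169). Ero1a, which oxidises protein disulphide isomerase in the endoplasmic reticulum, read 11.03, 10.87, 10.93, 10.99 and 10.87 in Cabozantinib tumours, against 10.47, 10.37, 9.99 and 9.98 in Placebo tumours, also 1.67-fold higher (adjusted p = 0.0409). The treated tumours were closely grouped and the Placebo tumours were in 2 pairs. Mxi1, a MYC antagonist, was 1.36-fold higher, at 9.48 to 9.81 in Cabozantinib and 9.02 to 9.26 in Placebo (adjusted p = 0.0418). The oxygen sensor gene Egln3 and the glucose transporter gene Slc2a1 were higher in 5 of 5 tumours and missed the threshold, with adjusted p of 0.0528 and 0.0630. Vegfa, the main VEGF ligand, differed by 0.48 ± 0.16 SE (adjusted p = 0.226), and Car9, a carbonic anhydrase widely used as a hypoxia marker, by 0.54 ± 0.17 SE (adjusted p = 0.206). Of 11 HIF subunits and regulators limma passed 0, and 2 were higher and 1 lower at an unadjusted p under 0.05. Hif1a differed by 0.18 with a 95% interval of -0.10 to 0.47, Epas1, which encodes HIF-2 alpha, by 0.29 with an interval of 0.05 to 0.53, and Arnt2, a HIF beta subunit, by -0.54 ± 0.23 SE (adjusted p = 0.611, 0.296 and 0.340). With the muscle score, the labelling controls or the hybridisation controls as a covariate the median of the hypoxia targets was 0.43, 0.46 and 0.48. Their score was 0.32, 0.04, 0.27, 0.24 and 0.16 in Cabozantinib tumours and -0.10, -0.22, -0.39 and -0.26 in Placebo tumours. All 16 measured glycolysis genes had positive differences too, with a median of 0.21, but 0 passed the threshold and 6 had an unadjusted p under 0.05. Pfkp, the platelet-type phosphofructokinase, differed by 0.45 ± 0.12 SE (adjusted p = 0.133), and Aldoa, aldolase A, differed by 0.23 ± 0.08 SE (adjusted p = 0.223).

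The core of the element that HIF binds is a short motif, so the promoters of P4ha2 and Ero1a, from the hypoxia targets that rose, and of Gys1, from the glycogen genes that rose, are shown. They are RefSeq sequences of mouse build GRCm38.p6, from 250 bases before to 50 bases after the annotated start, printed 5′ to 3′ on the strand of the gene. Capitals mark ACGTG and also the variant form GCGTG on the printed strand. They mark as well the reverse complements of both, which read CACGT for the motif with A and in the variant appear as CACGC, and stretches that overlap are counted once. P4ha2 lies at chr11:54100674-54100973 on the plus strand, Ero1a at chr14:45318523-45318822 on the minus strand, and Gys1 at chr7:45434589-45434888 on the plus strand.
P4ha2: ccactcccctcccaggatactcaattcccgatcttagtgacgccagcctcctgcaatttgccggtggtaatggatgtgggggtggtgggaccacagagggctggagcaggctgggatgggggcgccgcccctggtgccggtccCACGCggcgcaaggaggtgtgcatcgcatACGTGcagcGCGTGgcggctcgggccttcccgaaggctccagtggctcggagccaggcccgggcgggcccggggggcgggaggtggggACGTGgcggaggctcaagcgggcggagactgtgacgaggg
Ero1a: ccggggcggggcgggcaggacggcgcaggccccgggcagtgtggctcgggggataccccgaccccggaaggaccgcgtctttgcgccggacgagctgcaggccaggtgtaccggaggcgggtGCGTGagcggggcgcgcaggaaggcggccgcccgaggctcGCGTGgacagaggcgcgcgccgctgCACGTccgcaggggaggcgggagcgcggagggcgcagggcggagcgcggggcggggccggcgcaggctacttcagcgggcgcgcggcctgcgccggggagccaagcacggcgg
Gys1: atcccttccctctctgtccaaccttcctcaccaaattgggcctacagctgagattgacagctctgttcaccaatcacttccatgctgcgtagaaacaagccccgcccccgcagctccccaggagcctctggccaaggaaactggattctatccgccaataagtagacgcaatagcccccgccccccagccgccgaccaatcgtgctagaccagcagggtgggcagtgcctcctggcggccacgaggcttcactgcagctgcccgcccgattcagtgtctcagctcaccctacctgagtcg
The P4ha2 window held 4 marked stretches, that of Ero1a held 3 and that of Gys1 held 0. Mxi1, the other hypoxia target that rose, is not shown, and its promoters held 0, 1 and 1. Among all 32851 promoters in the table, 43.8% held at least 1 such stretch and 6.43% held at least 3. Promoters were found for 18 of the 19 genes that rose and for 17 of the 25 that fell. At least 1 stretch was present in 11 of 22 promoters (50%) of the genes that rose, and in 11 of 21 (52.4%) of the genes that fell. At least 3 were present in 3 of the 22 (13.6%) and in 1 of the 21 (4.76%), that of Gclm with 4. A match describes the letters only and is not a site shown to be bound.

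**Figure D2:**
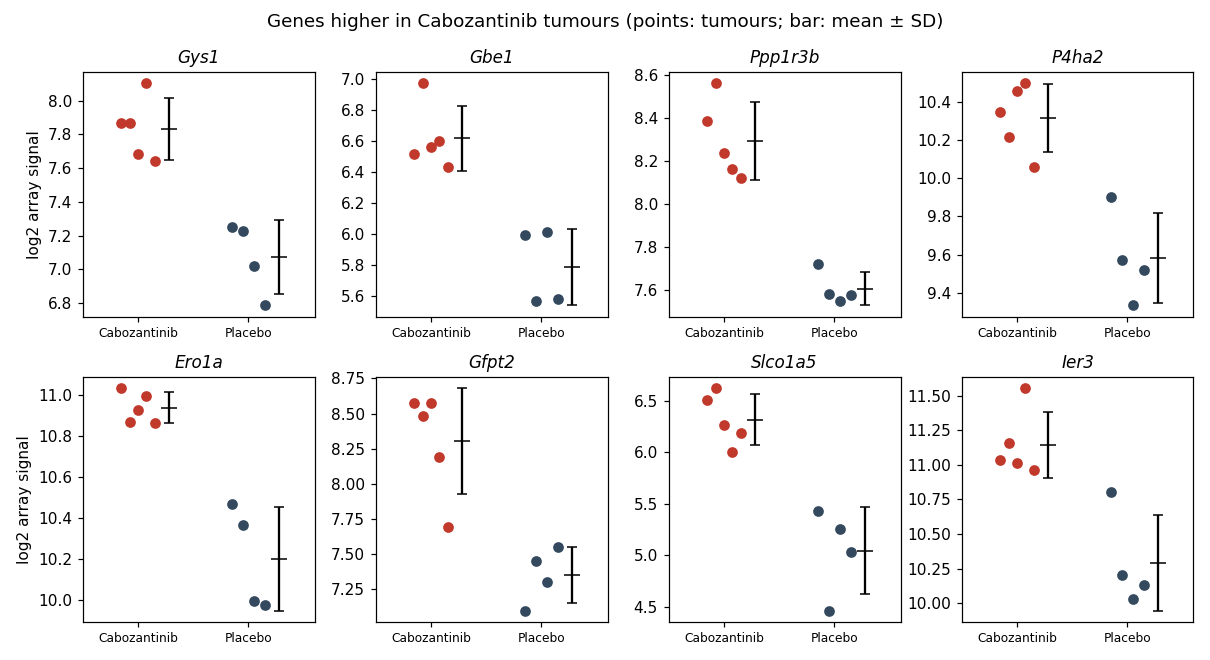
Log2 array signal of 8 genes that rose, for 5 Cabozantinib tumours (left of each panel) and 4 Placebo tumours (right), with 1 point per tumour and a bar for the mean ± SD. In every panel the lowest Cabozantinib tumour lies above the highest Placebo tumour, as for Gys1 at 7.64 against 7.25.

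The largest rises lay outside these groups. Lmcd1, a LIM domain cofactor of transcription, read 7.91, 7.64, 7.36, 7.63 and 7.62 in Cabozantinib tumours, against 6.50, 5.88, 6.53 and 5.91 in Placebo tumours. It was 2.68-fold higher, with an adjusted p of 0.0418, and its probe set can match several transcripts. 9130015A21Rik, a locus with no assigned function, read 8.63, 8.78, 8.05, 7.63 and 8.59 in Cabozantinib tumours, against 7.30, 6.78, 7.26 and 6.80 in Placebo tumours (2.47-fold higher, adjusted p = 0.0199). Slco1a5, an organic anion transporter, read 6.51, 6.62, 6.27, 6.01 and 6.19 in Cabozantinib tumours, against 5.43, 4.46, 5.25 and 5.04 in Placebo tumours (2.42-fold higher, adjusted p = 0.0169). For these 3 genes the groups did not overlap, and Placebo tumour 2 was the lowest of all 9 tumours in each. Psors1c2, named for its place in a psoriasis susceptibility region of human, read 7.25, 7.39, 7.06, 7.68 and 7.08 in Cabozantinib tumours, against 6.27, 6.08, 6.49 and 6.26 in Placebo tumours (2.03-fold higher, adjusted p = 0.0254). Gfpt2, an enzyme that starts hexosamine synthesis, read 8.57, 8.48, 8.58, 8.19 and 7.69 in Cabozantinib tumours, against 7.10, 7.45, 7.30 and 7.55 in Placebo tumours (1.94-fold higher, adjusted p = 0.0324). Cabozantinib tumour 5 lay close to the highest control in Gfpt2 and not in Psors1c2.

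Stress and adhesion genes completed the list of rises. Ier3, an immediate early gene that modulates cell survival, read 11.03, 11.16, 11.02, 11.55 and 10.96 in Cabozantinib tumours, against 10.80, 10.20, 10.03 and 10.13 in Placebo tumours (1.80-fold higher, adjusted p = 0.0297). Gadd45b, a growth arrest and stress gene, read 9.52, 9.28, 9.27, 9.60 and 9.44 in Cabozantinib tumours, against 8.89, 8.61, 8.41 and 8.87 in Placebo tumours (1.66-fold higher, adjusted p = 0.0324). Placebo tumour 1 was the highest control for both. Ier3 is the 1 of 16 measured immediate early genes that rose, with 12 positive differences and a median of 0.25. The phosphatase gene Dusp1 missed the threshold (0.77 ± 0.17 SE, adjusted p = 0.0760). Aplp1, an amyloid precursor-like protein gene, read 7.92, 8.17, 7.85, 8.06 and 7.68 in Cabozantinib tumours, against 7.37, 7.18, 6.97 and 7.32 in Placebo tumours (1.65-fold higher, adjusted p = 0.0414). Its probe set can match several transcripts, and a further probe set of the gene differed by 0.44. Osmr, the receptor subunit for oncostatin M, was 1.62-fold higher, at 9.37 to 9.87 in Cabozantinib and 8.71 to 9.24 in Placebo (adjusted p = 0.0381). The integrin subunit gene Itgav, the syndecan gene Sdc4 and the glycosaminoglycan sulfotransferase gene Ust showed small rises of 0.33, 0.41 and 0.38, with adjusted p of 0.0418, 0.0372 and 0.0395. Efcab3, an EF-hand gene, rose by 0.69 with both means under the lowest array median, so this rise rests on a dim signal.

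Proliferation genes moved little each but in 1 direction. All 25 measured DNA replication genes had negative differences, where 50% of all genes did, with a median of -0.42, and 24 had an unadjusted p under 0.05 although limma passed 0 of them at the threshold. As for the hypoxia targets, the list was chosen with earlier results known, and the count carries no test. In 13 of the 25 every Cabozantinib tumour was below every Placebo tumour (2.54% of all genes did so). Cdc6, which loads the replicative helicase, read 7.59, 7.53, 7.35, 7.30 and 7.51 in Cabozantinib tumours, against 7.99, 8.27, 8.43 and 8.07 in Placebo tumours (-0.73 ± 0.17 SE, adjusted p = 0.0918). Ccne1, cyclin E1, differed by -0.71 ± 0.17 SE, and Mcm5, a helicase subunit, by -0.68 ± 0.16 SE (adjusted p = 0.0933 and 0.102). The 22 measured mitosis genes were all negative as well, with a median of -0.36, 15 at an unadjusted p under 0.05 and 0 past the threshold. They included Aurkb, the Aurora B kinase (-0.53 ± 0.16 SE, adjusted p = 0.186), and Mki67, which encodes the Ki-67 antigen, at the small end (-0.16 with a 95% interval of -0.40 to 0.09). The replication score was -0.05, -0.17, -0.31, -0.23 and 0.09 in Cabozantinib tumours and 0.12, 0.27, 0.49 and 0.32 in Placebo tumours, so Cabozantinib tumour 5 was nearly level with Placebo tumour 1. The 2 treated tumours with the highest muscle scores, 3 and 4, had the lowest replication scores. Among Placebo tumours the order was opposite, as tumour 3 had the highest muscle score and also the highest replication score. With the muscle score as a covariate the median of the list was -0.38, with the labelling controls -0.32 and with the hybridisation controls -0.26.

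**Figure D3:**
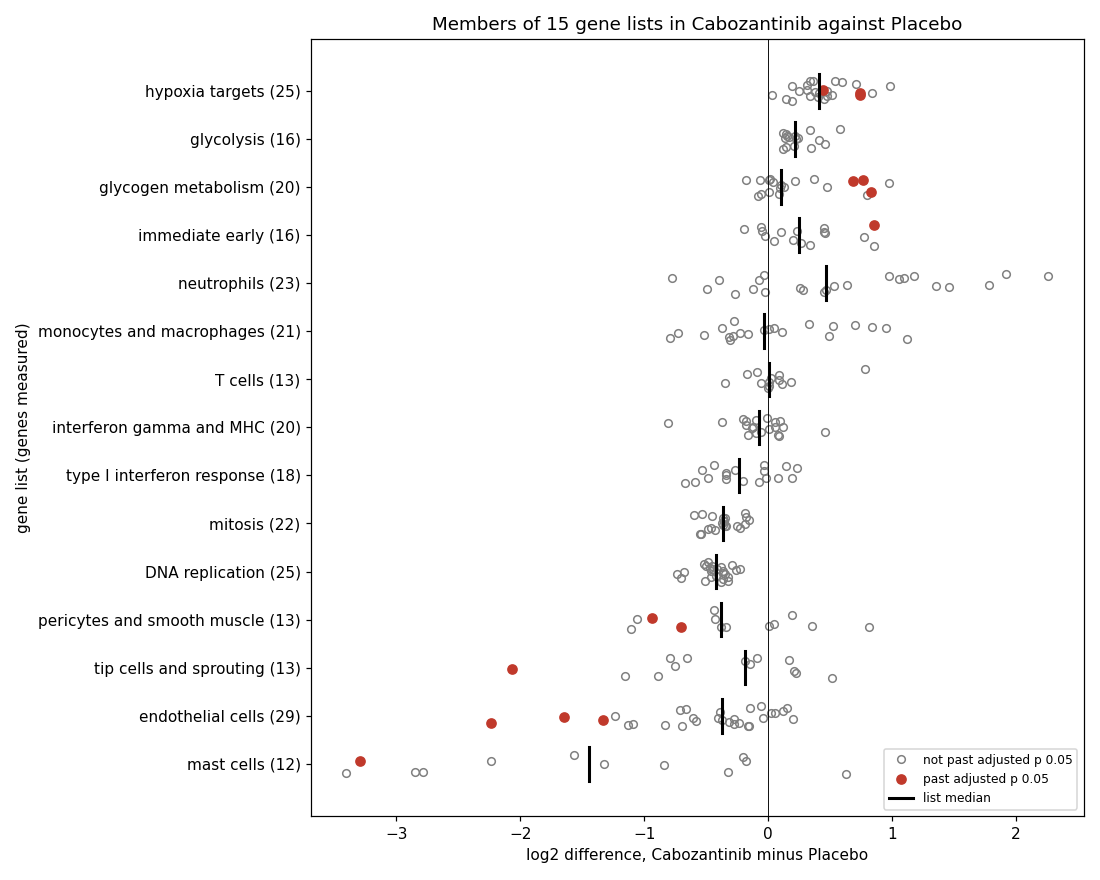
Log2 difference of each measured member of 15 gene lists, Cabozantinib minus Placebo, with filled points for genes past adjusted p 0.05, open points for the others and a bar for the list median. All 25 hypoxia targets lie right of 0 (median 0.41) and all 25 DNA replication genes left of it (median -0.42), and the filled points lie in the endothelial, tip cell, pericyte, mast cell, glycogen, hypoxia and immediate early lists.

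Neutrophil genes were uneven. Of 23 measured, 0 passed the threshold, 15 differences were positive, 7 of them at an unadjusted p under 0.05 with 1 negative at that level, and the median was 0.47. S100a9, a subunit of the neutrophil protein calprotectin, read 9.72, 9.70, 8.70, 11.79 and 9.35 in Cabozantinib tumours, against 7.40, 7.18, 8.54 and 7.25 in Placebo tumours. The groups did not overlap, but tumour 4 stood above the other treated tumours and Placebo tumour 3 came near the lowest treated tumour (2.26 ± 0.56 SE, adjusted p = 0.105). Without tumour 4 the difference was 1.78 (adjusted p = 0.108). Hcar2, a metabolite receptor of neutrophils and other myeloid cells, read 8.14 to 8.96 in Cabozantinib and 6.61 to 7.89 in Placebo (1.36 ± 0.28 SE, adjusted p = 0.0592). The neutrophil score was -0.23, -0.26, -0.01, 0.98 and -0.17 in Cabozantinib tumours and -0.33, -0.91, -0.19 and -0.66 in Placebo tumours, and 3 of 5 treated tumours were above every Placebo tumour. Cxcl2, a neutrophil attractant, followed the same pattern, at 8.87 to 11.49 in Cabozantinib, highest in tumour 4, and 7.59 to 8.56 in Placebo (adjusted p = 0.234).

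In 4 other immune lists limma passed 0 genes. The medians were -0.04 for 21 monocyte and macrophage genes, 0.01 for 13 T cell genes, -0.08 for 20 interferon gamma and MHC genes and -0.24 for 18 type I interferon genes. At an unadjusted p under 0.05 they held 3, 0, 0 and 2 genes, where 13% of all genes reached that level. Neutrophil-attracting chemokines and related cytokines had a median of 0.51 over 13 genes, and dendritic cell genes -0.20 over 10, with 4 and 2 genes at an unadjusted p under 0.05 and 0 past the threshold. Single immune genes differed in both directions. Higher were Tnfrsf9, a costimulatory receptor of activated T cells (1.42 ± 0.35 SE, adjusted p = 0.105), Arg1, the arginase of alternatively activated macrophages (1.12 ± 0.33 SE, adjusted p = 0.174) and Cd274, which encodes PD-L1 (0.68 ± 0.21 SE, adjusted p = 0.204). Lower were Ciita, the transactivator of MHC class II genes (-0.81 ± 0.42 SE, adjusted p = 0.445), and Ifit1, an interferon-induced gene (-0.67 ± 0.33 SE, adjusted p = 0.410). Gzmb, a cytotoxic granule protease, differed by 0.37 with a 95% interval of -0.59 to 1.33, so a change of either sign remained possible at this number of arrays. The 14 NK and cytotoxic genes, Gzmb among them, had a median of -0.15, with 9 negative and 5 positive differences. Limma passed 0 of them, and 2, both lower, had an unadjusted p under 0.05, where 13% of all genes did. Tnfrsf9 read 7.94 to 9.89 in Cabozantinib and 7.08 to 8.15 in Placebo, with 4 of 5 treated tumours above every control.

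The kinases that cabozantinib inhibits did not move together at the transcript level. Of 12 measured, 0 passed the threshold, 3 had an unadjusted p under 0.05, all lower, and the median was 0.03. Kdr, which encodes VEGF receptor 2, read 4.49, 5.89, 4.90, 5.52 and 4.50 in Cabozantinib tumours, against 6.01, 5.72, 6.84 and 6.05 in Placebo tumours. Only Cabozantinib tumour 2 overlapped the controls (-1.09 ± 0.30 SE, adjusted p = 0.136). Flt1, which encodes VEGF receptor 1, differed by 0.12 with a 95% interval of -0.37 to 0.61, and its sign turned to -0.043 with the labelling controls as a covariate and to -0.076 without Cabozantinib tumour 3. Met, the hepatocyte growth factor receptor gene, differed by 0.22 with a 95% interval of -0.03 to 0.46. Among 12 measured feedback genes of the MAPK pathway 0 passed the threshold. At an unadjusted p under 0.05, 2 were lower and 1 was higher, and the list median was -0.06. The highest difference was that of Etv4 (0.39), at 6.57 to 7.25 in Cabozantinib and 6.22 to 6.87 in Placebo. Etv5, a transcription factor induced by ERK signalling, read 8.50 to 8.98 in Cabozantinib and 8.98 to 9.73 in Placebo (-0.65 ± 0.14 SE, adjusted p = 0.0771), and Spry1, a feedback inhibitor of receptor kinases, was lower in 5 of 5 tumours (-0.46 ± 0.15 SE, adjusted p = 0.218).

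**Figure D4:**
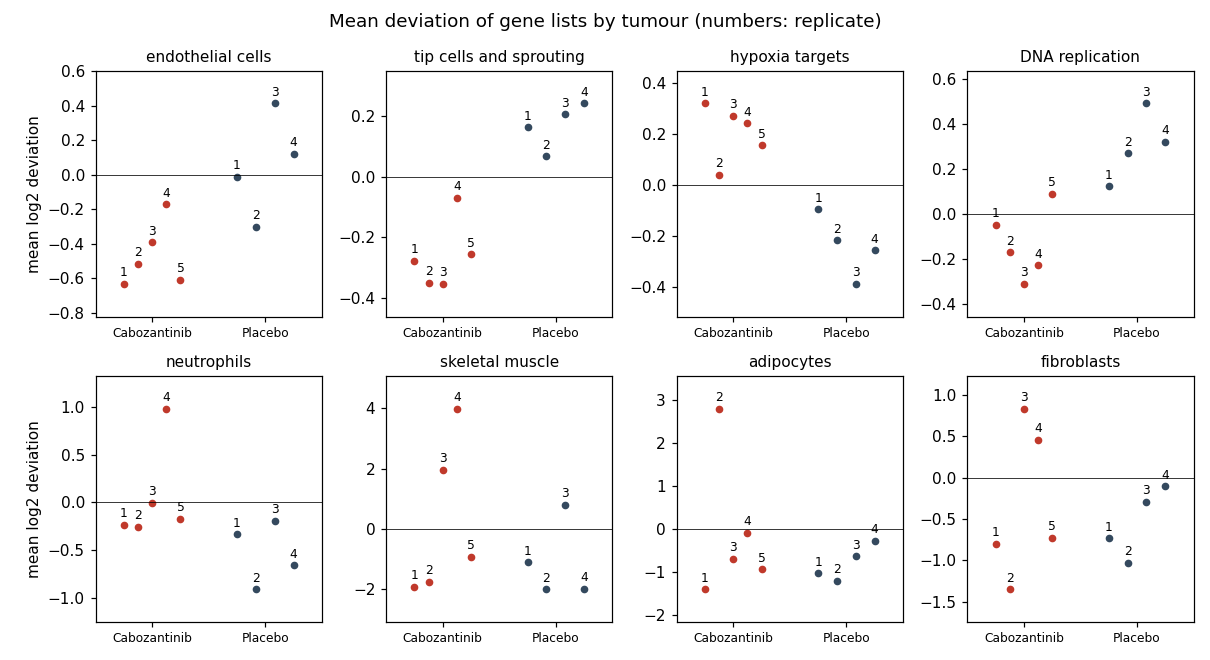
Mean log2 deviation of 8 gene lists by tumour, from each gene's mean over the 16 tumours, for 5 Cabozantinib tumours (left of each panel) and 4 Placebo tumours (right), numbered by replicate. The groups are apart for the tip cell, hypoxia and DNA replication lists, and Cabozantinib tumour 4 stands highest for neutrophils (0.98) and skeletal muscle (3.99), tumour 2 for adipocytes (2.80).

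The same 44 genes were read in the other 7 tumours, as Combination minus AntiPD1, which is cabozantinib added to the antibody. The means come from tumours of neither group, while the fit that called the 44 genes took its variance from all 16 arrays, so the 2 readings are not fully independent. Some tumours of the 2 readings also share the number that opens their titles. Without Combination tumour 1 the rises numbered 9 in place of 19, and without AntiPD1 tumour 3 the falls numbered 38 in place of 25. All 25 genes that fell were negative there (49.5% of all genes were) and all 19 that rose were positive (50.5% of all genes were). Without overlap between the groups were 22 of the 25, where 4.42% of all genes lay lower without overlap, and 14 of the 19, where 4.25% lay higher. Of the 25 genes, 11 also passed the threshold as falls (0.228% of all genes did), and of the 19, 0 passed as rises (0.00585% of all genes did). Not every matching sign was a sizeable difference. Sult1c2, Cyp11a1 and Ust differed by -0.21 ± 0.18, -0.17 ± 0.15 and 0.10 ± 0.08 SE in Combination minus AntiPD1. In AntiPD1 minus Placebo, without cabozantinib, these 3 genes differed by -0.97 ± 0.18, -0.70 ± 0.15 and 0.34 ± 0.08 SE. The vessel genes Esm1 and Gpihbp1 had Combination means of 4.81 and 4.79, under the lowest array median, so their differences are bounded by background. Esm1 read 5.11, 4.45, 4.90 and 4.78 in Combination, against 7.82, 8.31 and 8.64 in AntiPD1 (-3.45 ± 0.24 SE, adjusted p = 9.16e-06), and Gpihbp1 differed by -3.19 ± 0.31 SE (adjusted p = 0.000249). The differences of Cdh5 and Emcn were -2.22 and -2.26, and those of Apold1, Bmp2, Slc40a1 and Adgrf5 were -1.44, -1.81, -1.29 and -1.24, all past the threshold. Hbb-b2 differed by -2.86 ± 0.50 SE (adjusted p = 0.0273). Trp53i11 and Clca2 completed the 11, Clca2 with its Combination mean at background (4.06).

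Sizes differed between the 2 sets of tumours. The median of the 19 rises was 0.41 in Combination against AntiPD1 and 0.74 in Cabozantinib against Placebo, and all 19 were smaller in Combination against AntiPD1. For the 25 falls the medians were -1.11 and -1.05, with 10 larger and 15 smaller in Combination against AntiPD1. The genes were chosen in Cabozantinib against Placebo, so these sizes are a description. Mcpt2, at background in Combination (4.14), differed by -1.24 ± 0.57 SE in Combination against AntiPD1 (adjusted p = 0.682) and Lmcd1 by 0.73 ± 0.31 SE (adjusted p = 0.614). In AntiPD1 against Placebo, without cabozantinib, Mcpt2 differed by -2.22 ± 0.57 SE (limma adjusted p = 0.127). The difference between Combination against AntiPD1 and Cabozantinib against Placebo was itself tested in limma. It passed the threshold for 0 of 17097 genes, with 440 (2.57%) at an unadjusted p under 0.05. Of the 44 genes 14 had an unadjusted p under 0.05, the lowest being 0.00061 for Esm1. Esm1 had means under the lowest array median in both treated groups, at 4.66 in Cabozantinib and 4.81 in Combination, against 6.73 in Placebo and 8.26 in AntiPD1. Neither treated mean is shown to lie above background. Its 2 differences may therefore be set by the level without cabozantinib, and their difference is not read further. Of the 45 lists, 33 had medians of the same sign in both comparisons and 12 of opposite sign. The 25 hypoxia targets were again all positive (median 0.31), the 16 glycolysis genes all positive (0.19), the 25 replication genes all negative (-0.33) and the 22 mitosis genes all negative (-0.31). The 29 endothelial markers had a median of -0.86, with 10 past the threshold as falls. Their score was -0.24 to -0.01 in Combination and 0.57 to 1.25 in AntiPD1. In Placebo it was -0.30 to 0.41, so the -0.86 is measured from a higher level without cabozantinib. The Combination scores lay within the Placebo range, and those of Cabozantinib were -0.63 to -0.17.

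**Figure D5:**
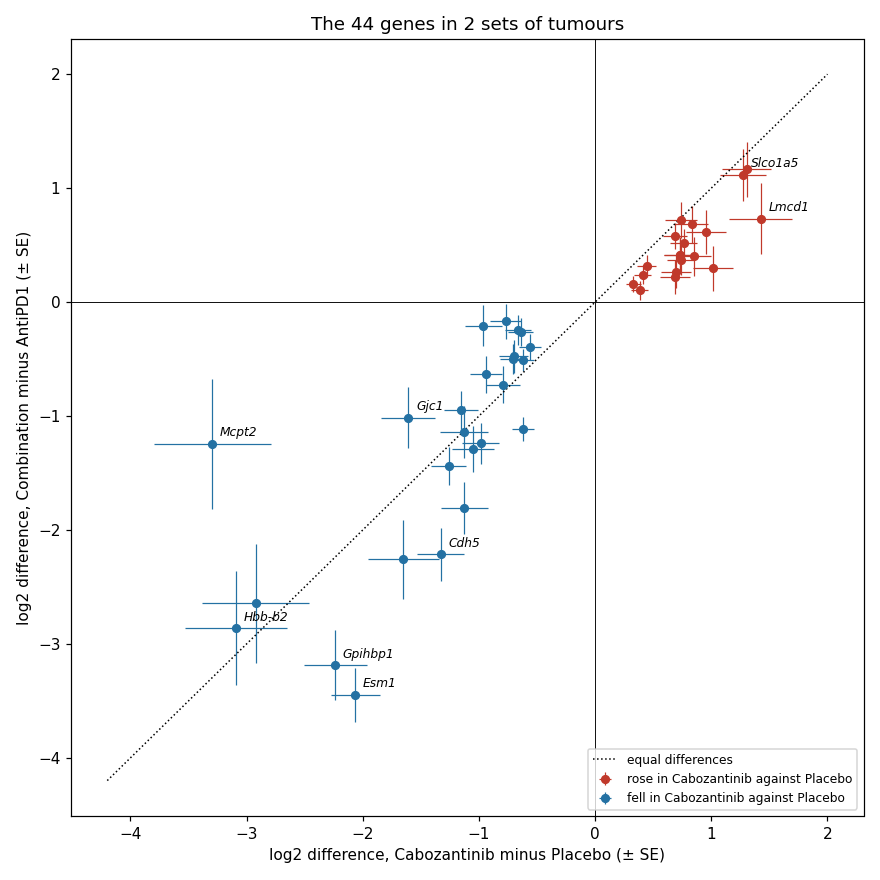
Log2 difference of the 44 genes in Cabozantinib minus Placebo (horizontal axis) and Combination minus AntiPD1 (vertical axis), with bars for ± SE and a dotted line for equal differences. The points of all 25 genes that fell lie below 0 and those of all 19 that rose above 0 on both axes, and Esm1 (-3.45) and Gpihbp1 (-3.19) are the lowest on the vertical axis.

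Other probe sets of the same genes gave a check within the arrays. For 16 of the 44 genes the array held 27 further probe sets, of which 25 had the same sign and 15 of those an unadjusted p under 0.05. The 2 of opposite sign, for Cyp11a1 and Sema6d, were dim. All 16 further sets with a mean above the lowest array median had the sign of the set that was kept.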

How the data were processed

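RNA of 16 tumours was hybridised to 1 Affymetrix mouse array each, from 50 ng, per the labels' protocols. The authors deposited log2 probe set values. Per the submitters' processing notes they used RMA and affy 1.62.0, and no settings, scan dates or batches are stated in the labels. The probe set names end as on the plate version of the named array. Replicates are separate tumours by their titles. The M number that opens each title, whose meaning the labels do not give, is shared by Cabozantinib tumours 2 and 3. It is also shared by Placebo 2 with AntiPD1 1, Placebo 4 with AntiPD1 3, and Cabozantinib 5 with Combination 3. No tumour with cabozantinib shares it with a tumour without, so the M number and the drug cannot be told apart. The p-values measure the spread between tumours and take each tumour as independent, which was not tested. No array was a copy of another, the correlations between arrays being 0.953 to 0.994. Arrays carry no read depth, and their number limits the precision.

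The table held 45141 probe sets, of which 28898 were paired with 1 gene in GEO's platform annotation, 551 with several and 15588 with none, beside 104 controls. Each gene kept its probe set of highest mean over 16 arrays, which left 17097 genes. They were fitted with limma 3.58.1 in R 4.3.3 (lmFit and eBayes, 4 group means, no covariate, all 16 arrays, 12 residual and 2.47 prior degrees of freedom), with Benjamini-Hochberg adjustment across all genes. The script was tested on simulated data. For quality measures an exact two-sided permutation test was used, whose smallest possible p is 0.00794. Lists are described by counts and medians and carry no test.

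Every gene past the threshold may be named, with values per tumour for the 12 largest rises and 12 largest falls, along with up to 4 members of smallest p in each of 45 lists and a fixed panel. The members, lists and panel were chosen with earlier results of these data known. Alternatives were a fit on the 9 arrays, array weights, 2 other normalizations, an intensity trend, a filter on dim genes, the mean of all probe sets, 3 covariates, leaving out each array in turn, and, chosen after seeing the data, leaving out Cabozantinib tumours 2 and 4 together. Promoter windows came from RefSeq, and no genome was used.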

Additional observations from a re-analysis of the deposited data

Results flagged for a closer look

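Among 98 checks of a group for a tumour far from the others, 5 were met, and chance meets about 1 in 20 of such checks. Emcn read 6.28 in Cabozantinib tumour 4, against 5.12 to 5.36 in the other 4 Cabozantinib tumours. Rgs5 read 9.85 in Cabozantinib tumour 4 and 10.38 to 10.56 in the others of its group. Kcnj8 read 7.35 in Cabozantinib tumour 3 and 7.86 to 7.98 in the others. Apold1 read 7.00 in Placebo tumour 4, with 6.48 to 6.56 in the other 3 Placebo tumours. Efcab3, a dim gene, read 4.22 in Placebo tumour 3 and 4.03 to 4.04 in the other 3. The 2 values of Cabozantinib tumour 4 went in opposite directions, nearer to Placebo for Emcn and farther from it for Rgs5.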

How the results depend on the processing

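Of the 44 genes, 0 changed sign in any of the 27 alternatives run. Over all genes and alternatives the call was kept 807 times and lost 377 times. Esm1 kept its call in 27 of 27, 19 genes kept it in at least 20, and Itgav kept it in 6. Against 19 rises and 25 falls, limma gave 1 and 3 on the 9 arrays alone, 32 and 39 with array weights, and 36 rises among genes above the lowest array median. It gave 45 rises with the mean of all probe sets, 6 with the labelling controls and 1 with the hybridisation controls as a covariate. Falls numbered 15 with the hybridisation controls and 46 with the muscle score. Without Cabozantinib tumours 2 and 4 together 3 genes rose. Leaving out 1 array gave 0 to 48 rises and 5 to 43 falls. Without Placebo 1, 2, 3 and 4 the rises were 48, 3, 0 and 2, without Cabozantinib 1, 2, 3 and 5 they were 5, 10, 7 and 11, and without Combination 1 they were 9. Falls moved by over 1.5 times without Placebo 1 (43), Placebo 3 (5), Placebo 4 (12), Cabozantinib 3 (16) and AntiPD1 3 (38). The fit without an array or with 9 arrays has fewer samples, and the causes of these changes were not tested.

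In Combination against AntiPD1, 39 falls became 118 with array weights, 24 among genes above the lowest array median and 60 with the muscle score, and 12 to 49 when 1 array was left out. The 1 rise became 37 with array weights, 5 after quantile normalization, 4 after median centring, 3 with an intensity trend, 5 with the mean of all probe sets, 5 with the labelling controls, 2 with the hybridisation controls, 6 with the muscle score, 5 without Cabozantinib tumours 2 and 4, and 1 to 4 when 1 array was left out. The difference of the 2 comparisons passed for 0 genes, for 1 with the muscle score, and for 0 to 1 when 1 array was left out. The difference of Flt1 turned to -0.043 with the labelling controls, and ran from -0.076 without Cabozantinib tumour 3 to 0.29 without Placebo tumour 1. Over all lists and alternatives 1171 medians stayed within the spread between tumours and 44 did not. No paired analysis was possible because the labels give the Cabozantinib and Placebo tumours no shared replicate number. Pygm turned to -0.13 with the labelling controls and to -1.15 with the hybridisation controls. Treated means under the lowest array median limit Mcpt2, Esm1, Bmp2, Trp53i11, Cyp11a1, Emid1, Clca2 and Efcab3 among the 44 genes, and Cpa3, Tpsb2, Cldn5, Higd1b and Notch4 among the others named.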

Other observations

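The 26 measured subunits of the mitochondrial respiratory chain had small differences, -0.16 to 0.05, of which 24 were negative, with a median of -0.07. Limma passed 0 of them, and 3 had an unadjusted p under 0.05, where 13% of all genes did. Their score did not overlap between the groups, with every Cabozantinib tumour below 0, the lowest at -0.08, and 0.01 to 0.11 in Placebo. In Combination against AntiPD1, 15 of the 26 were negative and the median was -0.01. The 20 measured ribosomal protein genes had a median of -0.01 with 0 at an unadjusted p under 0.05.

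Of 13 measured Notch pathway genes limma passed 0, and 5 had an unadjusted p under 0.05, 4 of them lower. Notch4, a Notch receptor of endothelial cells, was lower in 5 of 5 tumours, with a limma adjusted p of 0.101. It read 4.47 ± 0.19 in Cabozantinib (SD, n = 5), a mean under the lowest array median, and 5.17 ± 0.41 in Placebo (SD, n = 4). The score of the list was -0.13 to -0.07 in Cabozantinib and -0.05 to 0.19 in Placebo.

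Of 21 measured hepatocyte and fetal liver genes 0 passed the threshold, and 3 had an unadjusted p under 0.05, where 13% of all genes did. The median was 0.13 in Cabozantinib against Placebo and -0.17 in Combination against AntiPD1.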
